A study of Macaca fascicularis with 4 samples.

Results

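The genes described here encode the subunits of the proteasome, with its activators, its inhibitor and its assembly chaperones, in full-length RNA of 4 tissues of the cynomolgus monkey (Macaca fascicularis). They were chosen by name, as every gene name in the count files that starts with PSM, goes on with a letter from A to G and ends in digits. That gave 45 of 13982 gene names: 7 PSMA genes, 7 standard PSMB genes, the 3 immunoproteasome genes PSMB8, PSMB9 and PSMB10, 6 PSMC, 14 PSMD, 4 PSME and 3 PSMG genes, and PSMF1. Each of the 4 libraries listed 43 of the 45, and an unlisted gene was taken as 0. PSMA8, PSMB11 and PSMG2 were not analysed here.

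The tissues were liver, muscle, oWAT and sWAT, with 1 library of each, and each library was made from RNA pooled from 5 monkeys. The names oWAT and sWAT are used as labelled (WAT usually stands for white adipose tissue). The labels give no genotype, diet, treatment, age or sex. With 1 library a tissue there was no replicate check: every interval below covers counting error alone, not the spread between animals, and no p-value was computed. In bulk tissue, fewer cells of a type and less RNA per cell cannot be told apart.

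The proteasome is the protease that degrades proteins tagged with ubiquitin. Its barrel-shaped core is built of alpha subunits (PSMA), which form the gated entrance, and beta subunits (PSMB), some of which carry the peptidase sites. A regulatory particle caps the core: its base holds the ring of ATPases (PSMC), which unfold substrates, and the scaffold subunits PSMD1 and PSMD2, while its lid is made of further PSMD subunits, among them PSMD14, which cuts ubiquitin off the substrate. Under interferon, cells make PSMB8, PSMB9 and PSMB10, which replace the standard peptidases PSMB5, PSMB6 and PSMB7, and the activator formed by PSME1 and PSME2; this immunoproteasome is known for cutting peptides for MHC class I molecules. In muscle the proteasome is known for the breakdown of contractile proteins.

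Counts assigned to genes ran from 383896 in sWAT to 439872 in muscle. Values are given as counts and as CPM, each count divided by the library's gene-assigned total and multiplied by 1000000. A count of 0 allows up to 3 counts, which is 6.82 to 7.81 CPM. Each labelled tissue held its defining markers: the 5 hepatocyte markers summed to 185611 CPM in liver, the 5 myofibre markers to 94878 CPM in muscle, and the 5 adipocyte markers to 6978 CPM in oWAT and 6382 CPM in sWAT. The muscle library also held 414 CPM of the adipocyte markers, with CIDEC at 0 among them, and 4 fibroblast markers ranged from 293 CPM in liver to 63181 CPM in sWAT. In liver 24.0% of the counts fell on its 10 most abundant genes, against 7.54% in oWAT, and most genes stood lower in liver on the CPM scale. Over all genes with at least 10 counts in a pair of libraries, the median log2 ratio was -0.50 for liver over muscle, -0.93 for liver over oWAT, -0.72 for liver over sWAT, -0.54 for muscle over oWAT, -0.37 for muscle over sWAT and 0.16 for oWAT over sWAT. Scaling by edgeR's trimmed mean of M-values (TMM) or by DESeq2's size factors moved all genes of a pair by 0.15 to 1.01 on that scale, the most between liver and oWAT. Members are therefore read beside the median of all genes, and shares within a library, which no scaling changes, are given where they can be.

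Summed over all 45 genes, proteasome counts were highest in the muscle library. They came to 1764 counts in muscle (4010 CPM), 1101 in oWAT (2775 CPM), 872 in sWAT (2271 CPM) and 793 in liver (1812 CPM). In percent of the library these sums were 0.401 in muscle (exact 95% binomial interval 0.383 to 0.420), 0.277 in oWAT (0.261 to 0.294), 0.227 in sWAT (0.212 to 0.243) and 0.181 in liver (0.169 to 0.194). Muscle was 2.21-fold above liver (exact 95% interval 2.03 to 2.41), 1.45-fold above oWAT (1.34 to 1.56) and 1.77-fold above sWAT (1.63 to 1.92).

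Muscle stayed the highest library under each of the 4 scalings, and the order of the other libraries did not hold. With TMM scaling muscle was 1.63-fold above liver, 2.14-fold above oWAT and 2.35-fold above sWAT, and with DESeq2's factors 1.63-fold, 2.11-fold and 2.27-fold. On the CPM scale oWAT was 1.53-fold (1.40 to 1.68) and sWAT 1.25-fold (1.14 to 1.38) above liver. Those ratios turned to 0.763 and 0.693 with TMM and to 0.771 and 0.718 with DESeq2's factors. Between the WAT libraries, oWAT was 1.22-fold above sWAT (1.12 to 1.34), and 1.07-fold with DESeq2's factors, where the interval of 0.982 to 1.18 included 1.

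**Figure D1:**
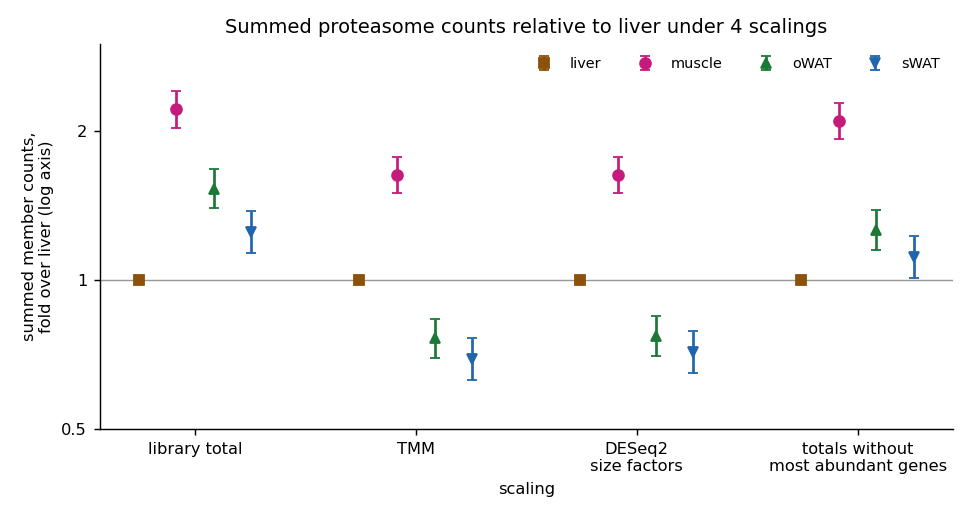
Summed counts of the 45 proteasome genes in each library as a fold over liver (log axis), under 4 scalings; bars are exact 95% intervals for counting error, and liver is 1 by construction. Muscle lies above the other 3 libraries at each scaling (2.21 over liver with library totals, 1.63 with TMM), while oWAT and sWAT lie above liver with library totals and below it with TMM and DESeq2's factors.

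Few genes were deeply sequenced. The median member had 9 counts in liver, 14 in muscle, 10 in the oWAT library and 14 in sWAT, and 21, 28, 25 and 27 of the 45 members reached 10 counts in these libraries. PSMD2 and PSMD1 alone held 20% and 12% of all proteasome counts. For comparison, 46 ribosomal protein genes, which encode small proteins and were looked up after the counts were seen, summed to 436 CPM in liver and 509 in muscle, with 769 in oWAT and 742 in sWAT, with a median of 1 to 2 counts a gene. Transcript length was not used, so levels are compared between libraries for the same gene or group, never between genes. Several proteasome genes have processed copies elsewhere in primate genomes, and how reads shared with them were counted is not known here.

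**Figure D2:**
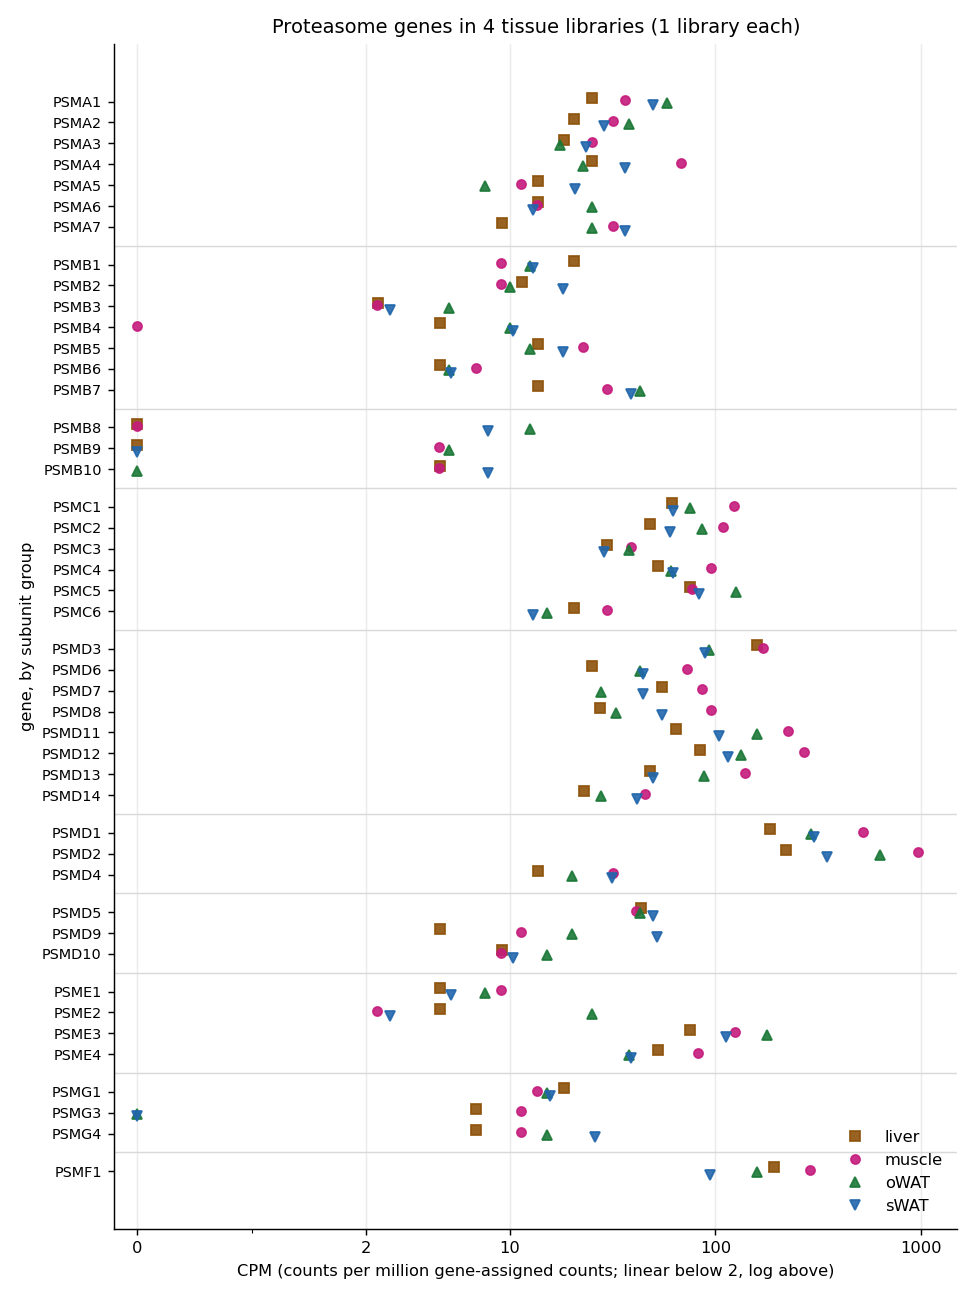
CPM of each of the 45 genes (rows, by subunit group) in the 4 libraries (1 point a library; horizontal axis linear below 2 CPM and logarithmic above). Muscle points lie farthest right for most PSMC genes and most lid and base genes, such as PSMD2 at 968 CPM, whereas points of the PSMA and PSMB genes mix, most of them below 50 CPM.

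Among the 3 groups with over 100 counts in each library (PSMC, lid and base), the base differed most between tissues. PSMD2, a scaffold subunit that docks ubiquitin receptors and shuttle factors, had 96 counts in liver (219 CPM), 426 in muscle (968 CPM), 250 in the oWAT library (630 CPM) and 134 in sWAT (349 CPM). On the CPM scale muscle was the highest library and liver the lowest. PSMD2 in muscle was 4.41-fold above liver (3.53 to 5.57), 2.77-fold above sWAT (2.28 to 3.39) and 1.54-fold above oWAT (1.31 to 1.80), and oWAT was 1.81-fold above sWAT (1.46 to 2.24) and 2.87-fold above liver (2.26 to 3.67).

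PSMD1, the other large scaffold, had 81 counts in liver (185 CPM) and 230 in muscle (523 CPM), with 116 in oWAT (292 CPM) and 116 in sWAT (302 CPM). It too was highest in muscle, 2.82-fold above liver (2.18 to 3.69), 1.79-fold above oWAT (1.42 to 2.26) and 1.73-fold above sWAT (1.38 to 2.18), but the WAT libraries stood level with each other. PSMD4, the ubiquitin receptor of the base, had only 6 counts in liver, 14 in muscle, 8 in the oWAT library and 12 in sWAT, too few to separate any pair. Together the 3 base genes came to 418 CPM in liver and 1523 in muscle, with 943 in oWAT and 682 in sWAT, and muscle was 3.64-fold above liver (3.09 to 4.31), 1.62-fold above oWAT (1.42 to 1.84) and 2.23-fold above sWAT (1.93 to 2.58).

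The 8 lid genes were also highest in muscle. They summed to 213 counts in liver (487 CPM), 485 in muscle (1103 CPM), 240 in the oWAT library (605 CPM) and 208 in sWAT (542 CPM). Muscle was 2.27-fold above liver (1.92 to 2.67), 1.82-fold above oWAT (1.56 to 2.14) and 2.04-fold above sWAT (1.73 to 2.41). Liver over oWAT, at 0.805, turned to 1.62 with TMM and 1.60 with DESeq2's factors.

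Within the lid, PSMD12, a structural subunit, had 37 counts in liver (84.6 CPM) and 118 in muscle (268 CPM), with 53 in oWAT (134 CPM) and 44 in sWAT (115 CPM). Muscle was 3.17-fold above liver (2.18 to 4.72), 2.01-fold above oWAT (1.44 to 2.83) and 2.34-fold above sWAT (1.64 to 3.39). PSMD11, a neighbour of the ATPase ring in the assembled particle, had 28, 99, 63 and 40 counts in liver, muscle, oWAT and sWAT, and muscle was 3.52-fold above liver (2.29 to 5.56).

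PSMD3 was the one lid gene whose intervals placed liver above both WAT libraries with library totals. It had 70 counts in liver (160 CPM), 75 in muscle (171 CPM), 37 in the oWAT library (93.2 CPM) and 34 in sWAT (88.6 CPM). Here liver stood beside muscle and above both WAT libraries, 1.72-fold over oWAT (1.14 to 2.63) and 1.81-fold over sWAT (1.18 to 2.81). PSMD14, the deubiquitinase, had the fewest counts of the lid, 10 in liver and 20 in muscle, with 11 in oWAT and 16 in sWAT. The remaining lid genes PSMD6, PSMD7, PSMD8 and PSMD13 each had their most counts in muscle, from 32 for PSMD6 to 61 for PSMD13. Against oWAT the largest ratio of the lid was that of PSMD7, at 3.12-fold (1.56 to 6.76). Like PSMD3, PSMD7 stood higher in liver (54.8 CPM) than in oWAT (27.7 CPM) and sWAT (44.3 CPM). Its intervals for liver over oWAT (0.933 to 4.47) and over sWAT (0.638 to 2.46) included 1.

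The 6 ATPase genes differed less. They summed to 126 counts in liver (288 CPM), 208 in muscle (473 CPM), 159 in the oWAT library (401 CPM) and 119 in sWAT (310 CPM). Muscle was 1.64-fold above liver (1.31 to 2.07) and 1.53-fold above sWAT (1.21 to 1.93), and its ratio of 1.18 to oWAT (0.955 to 1.46) did not exclude 1. With TMM scaling the interval of liver and muscle included 1 and muscle over oWAT became 1.74-fold. PSMC5, the most counted ATPase, went against the rest at 33 counts in liver and 34 in muscle, against 50 in oWAT and 32 in sWAT, and oWAT was 1.63-fold above muscle (1.03 to 2.60), and 1.1-fold with TMM scaling (0.70 to 1.76). PSMC6 had the fewest, 9, 13, 6 and 5 in the same order.

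The core genes stood about level in muscle, oWAT and sWAT on the CPM scale, a level that moved with the scaling. The 17 PSMA and PSMB genes summed to 88 counts in liver (201 CPM), 135 in muscle (307 CPM), 123 in the oWAT library (310 CPM) and 127 in sWAT (331 CPM). Muscle and both WAT libraries lay close together and liver lowest. Muscle over oWAT was 0.99 (0.770 to 1.27) and muscle over sWAT 0.928 (0.723 to 1.19), while the other libraries stood above liver, at 1.53-fold for muscle (1.16 to 2.02), 1.54-fold for oWAT (1.16 to 2.05) and 1.65-fold for sWAT (1.24 to 2.18). With TMM scaling the same ratios became 1.46 for muscle over oWAT (1.14 to 1.88), 1.24 for muscle over sWAT (0.963 to 1.59), 1.12 for muscle over liver (0.852 to 1.49), 0.768 for oWAT over liver (0.579 to 1.02) and 0.909 for sWAT over liver (0.687 to 1.21). The order of the core sums therefore depends on the scaling, which the shares below do not.

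Among the alpha subunits, PSMA1 had the most counts, with 11 in liver and 16 in muscle, with 23 in oWAT and 19 in sWAT, and PSMA5 the fewest, with 6, 5, 3 and 8. PSMA4 was the one alpha subunit whose intervals placed muscle above both liver and oWAT with library totals: it had 11 counts in liver (25.1 CPM), 30 in muscle (68.2 CPM), 9 in the oWAT library (22.7 CPM) and 14 in sWAT (36.5 CPM), a ratio of 2.71 to liver (1.32 to 6.0) and of 3.01 to oWAT (1.39 to 7.20). With TMM scaling its ratio to liver was 2.0 (0.973 to 4.42). PSMA7 was lowest in liver and with 4 counts against 14 in muscle, with 10 in oWAT and 14 in sWAT.

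Among the standard beta subunits, PSMB7, which carries the trypsin-like site, had the most counts: 6 in liver (13.7 CPM), 13 in muscle (29.6 CPM), 17 in the oWAT library (42.8 CPM) and 15 in sWAT (39.1 CPM). It was 3.12-fold higher in oWAT than in liver (1.18 to 9.68) and 2.85-fold higher in sWAT (1.04 to 8.96), but with TMM scaling both ratios had intervals that included 1 (1.56, 0.586 to 4.82, and 1.57, 0.577 to 4.95). PSMB3 had the fewest, with 1 to 2 counts a library. PSMB4, a structural beta subunit that every core needs, was at 0 in muscle, where the floor is 6.82 CPM, and at 2 to 4 counts elsewhere.

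The make-up of the proteasome counts therefore differed between the libraries. Core genes made up 7.65% of the proteasome counts in muscle (6.46 to 8.99), 11.1% in liver (8.996 to 13.5), 11.2% in oWAT (9.37 to 13.2) and 14.6% in sWAT (12.3 to 17.1). Muscle had the lowest core share and sWAT the highest. The odds of a proteasome count being a core count in muscle were 0.664 times those in liver (0.496 to 0.892), 0.659 times those in oWAT (0.506 to 0.860) and 0.486 times those in sWAT (0.373 to 0.635). Without PSMD1 and PSMD2 they were 0.833 times those in liver, with an interval (0.618 to 1.13) that included 1, 0.690 times those in oWAT (0.525 to 0.908) and 0.541 times those in sWAT (0.411 to 0.712). The ribosomal protein sums given above, on the CPM scale alone, were lower in liver and muscle than in the WAT libraries. The core share of liver stood near that of oWAT instead. Any tie of the ribosomal sums to the core shares was not tested. Recovery of transcripts by length in each library was not examined. Its part in these group shares cannot be told apart from that of the tissue.

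The base share followed another order, with muscle highest and liver lowest. PSMD1, PSMD2 and PSMD4 made up 38.0% of the proteasome counts in muscle (35.7 to 40.3), 34.0% in oWAT (31.2 to 36.9), 30.0% in sWAT (27.0 to 33.2) and 23.1% in liver (20.2 to 26.2). The odds of base counts were 2.04 times higher in muscle than in liver (1.68 to 2.49), 1.19 times higher than in oWAT (1.01 to 1.40) and 1.43 times higher than in sWAT (1.19 to 1.70). The lid took 26.9% in liver and 27.5% in muscle, against 21.8% in oWAT and 23.9% in sWAT. The ATPases took 15.9% in liver (13.4 to 18.6) and 11.8% in muscle (10.3 to 13.4), with 14.4% in oWAT and 13.6% in sWAT.

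**Figure D3:**
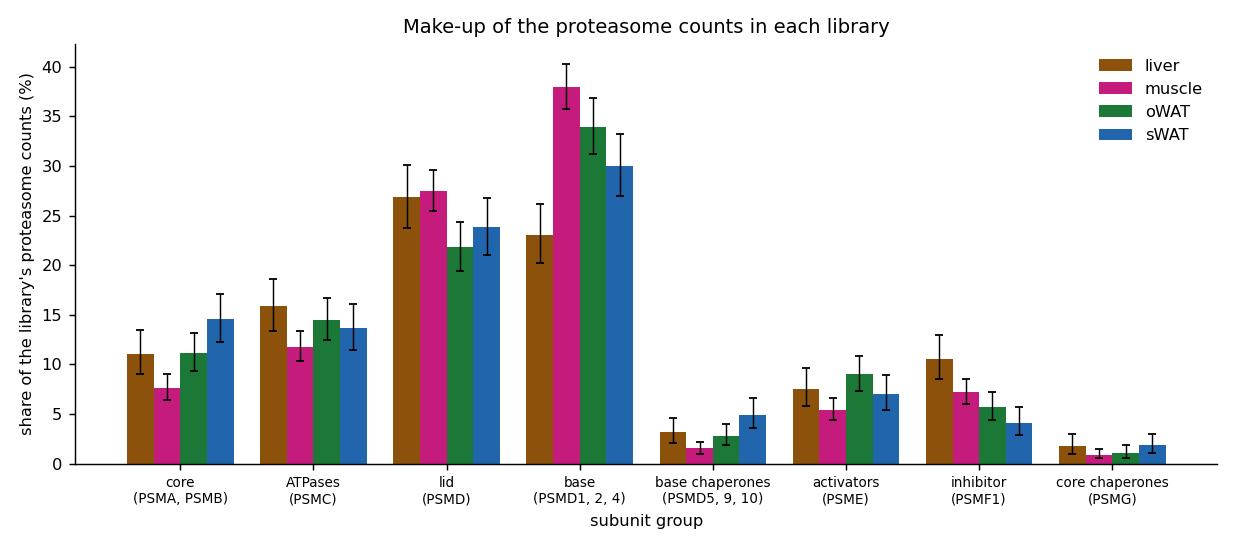
Share of each library's proteasome counts (vertical axis, %) taken by each subunit group; bars are the 4 libraries and error lines exact 95% binomial intervals for counting error. The base share rises from 23.1% in liver to 38.0% in muscle, while the core share is lowest in muscle (7.65%) and highest in sWAT (14.6%) and the PSMF1 share highest in liver (10.6%).

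Gene by gene, a member was called higher in a library when the pair held at least 10 counts and its fold had an exact 95% interval lying wholly above 2. In muscle over liver, 4 of 32 tested members were called (PSMD1, PSMD2, PSMD11 and PSMD12), or 12.5%, where 16.8% of all 7967 tested genes were. In muscle over sWAT, 2 of 34 were called (PSMD2 and PSMF1), or 5.88%, against 6.63% of all genes. In oWAT over liver 1 of 34 was called (PSMD2), against 20.5% of all genes, and in sWAT over liver 1 of 35 (PSMD9), against 18.1%. Muscle and oWAT had 0 members called in either direction, with 5.77% and 8.99% of all genes called higher in muscle and in oWAT, and oWAT and sWAT likewise 0, with 1.14% and 0.557%. No member was called higher in liver, against 11% of all genes over muscle, 7.73% over oWAT and 8.4% over sWAT. Each of these shares of members was below that of all genes. The calls depended on the scaling: with TMM or DESeq2's factors PSMD2 alone was called in muscle over liver, the 2 calls of WAT over liver were lost, and PSMD3 was called higher in liver than in both WAT libraries and PSMF1 higher than in sWAT. Muscle over oWAT then had 5 calls and muscle over sWAT 4. The shares of all genes called with those factors are not given here, so these counts cannot be set against the shares above. The counts cover the tested members, not all 45, and a member could pass the minimum through its high library alone.

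With an interval wholly above 1, in place of 2, more members were higher in muscle. Muscle was then higher than oWAT for 12 of 34 tested members (35.3%) against 12.3% of all genes, and higher than sWAT for 12 of 34 (35.3%) against 15.3%. It was higher than liver for 14 of 32 (43.8%) against 35.3%. In the other direction oWAT was higher than muscle for PSMC5 and PSME2 (5.88% against 33.7% of all genes), and sWAT was higher than muscle for PSMD9 (2.94% against 28.5%). For oWAT over liver the share was 32.4% of tested members against 46.8% of all genes, and for sWAT over liver 14.3% against 40.1%. Liver was higher for PSMD3 over oWAT (2.94% against 12.3%) and for PSMD3 and PSMF1 over sWAT (5.71% against 13.9%). Between the WAT libraries, 5 of 37 were higher in oWAT (13.5% against 13% of all genes) and PSMD9 was higher in sWAT (2.7% against 6.59%).

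The medians are given beside those of all genes. Over tested members the median log2 ratio of muscle over oWAT was 0.56, against -0.54 over all genes, and that of muscle over sWAT 0.35, against -0.37. For liver over muscle it was -0.70 against -0.50, for liver over oWAT -0.59 against -0.93, for liver over sWAT -0.44 against -0.72, and for oWAT over sWAT -0.048 against 0.16. For muscle over oWAT and for muscle over sWAT alike, 28 of 34 tested members lay above the all-gene median. Muscle was the highest library for 21 of the 35 members with at least 20 counts in all, whereas it was the highest for 21.0% of the 8479 genes with as many counts.

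**Figure D4:**
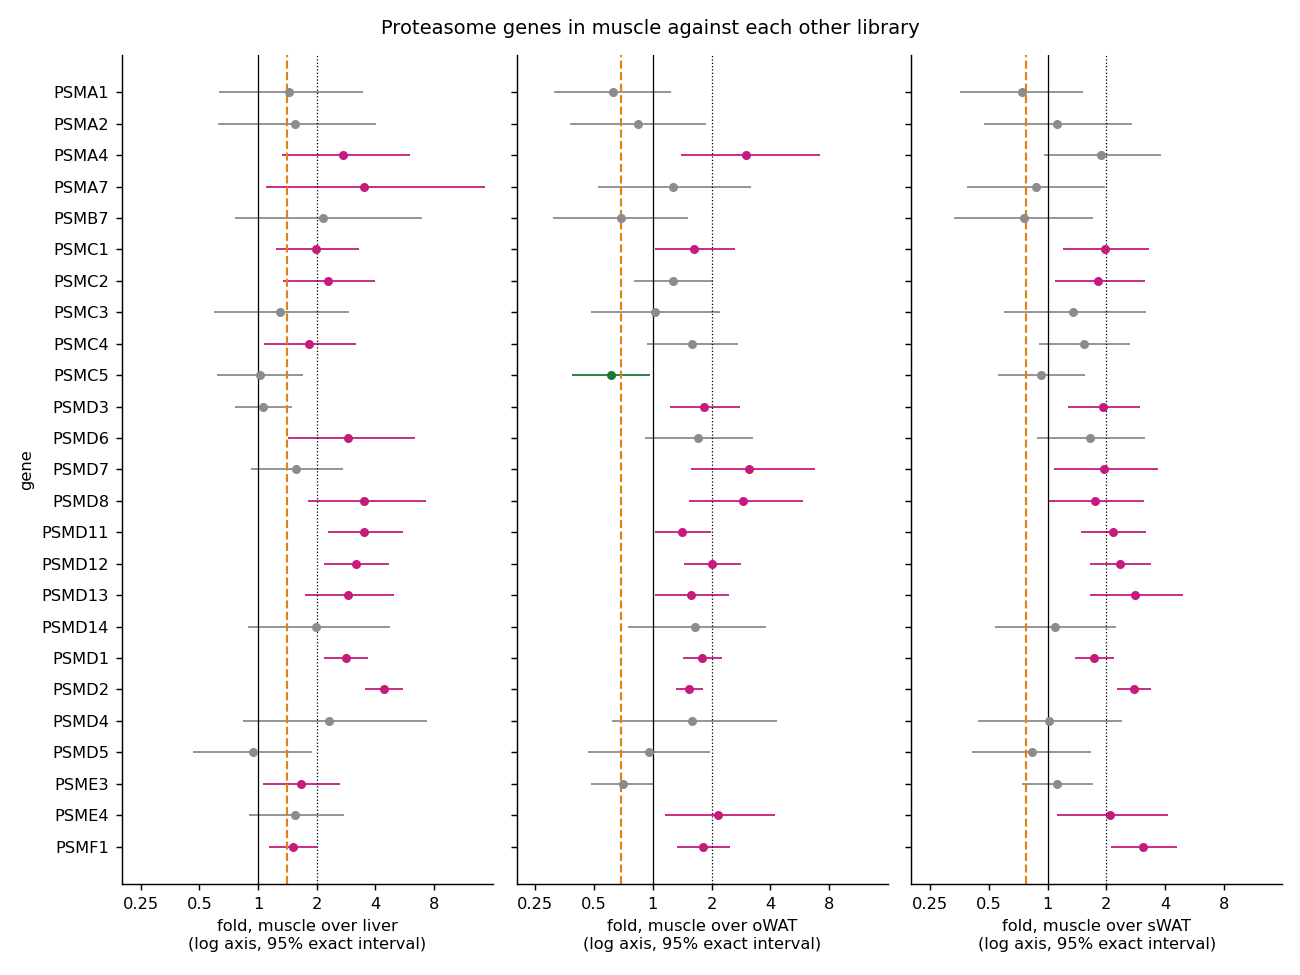
Fold of muscle over liver, oWAT and sWAT (log axes) for the proteasome genes whose counts summed to 40 or more, with exact 95% intervals for counting error; solid line 1, dotted line 2, dashed line the median of all genes. Pink marks intervals above 1 and green the interval below 1 (PSMC5 against oWAT); against oWAT and sWAT most PSMD genes lie right of the dashed line, and PSMD2 reaches 4.41-fold against liver.

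Members kept much the same rank in all 4 tissues. Across the 45 genes the Spearman correlation of CPM between libraries ran from 0.88 (liver with oWAT and with sWAT) to 0.95 (liver with muscle). Over 10127 genes with at least 10 counts in all, it ran from 0.39 for liver with muscle to 0.89 for oWAT with sWAT, a pair in which the members stood at 0.92. These are descriptions across genes that share transcript length and the library method in every tissue. Between the WAT libraries, 3 of 37 tested genes (PSMD2, PSMD9 and PSME2) had an interval that excluded the summed fold of the other members. The count was 9 of 32 between liver and muscle, 7 of 34 for liver and oWAT and 6 of 35 for liver and sWAT. Muscle gave 8 of 34 against oWAT and 9 of 34 against sWAT. The same share over all genes was not computed. By the calling rule the WAT libraries also differed least over all genes (1.14% called higher in oWAT, 0.557% in sWAT).

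The base chaperones PSMD5, PSMD9 and PSMD10, which guide assembly of the ATPase ring and leave the finished particle, did not follow the base. PSMD5 was nearly level, at 19 counts in liver and 18 in muscle, with 17 in oWAT and 19 in sWAT. PSMD9 had 2 counts in liver (4.57 CPM), 5 in muscle (11.4 CPM), 8 in the oWAT library (20.2 CPM) and 20 in sWAT (52.1 CPM). It was thus highest in sWAT, with a ratio of 11.4 to liver (2.77 to 101), of 4.58 to muscle (1.67 to 15.6) and of 2.58 to oWAT (1.09 to 6.78). The call over liver was lost with TMM (6.30-fold, 1.53 to 55.6) and DESeq2's factors (6.53-fold, 1.59 to 57.6). PSMD10 had 4 counts in each library except oWAT, which had 6.

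The core chaperones and the inhibitor behaved differently from each other. PSMG1, PSMG3 and PSMG4, which help to assemble the alpha ring, summed to 14, 16, 12 and 16 counts in liver, muscle, oWAT and sWAT, and no pair could be separated. PSMG1 had the most of them over the 4 libraries, with 8, 6, 6 and 6 counts, and PSMG3 the fewest, with 3 in liver, 5 in muscle and 0 in both WAT libraries. PSMF1, an inhibitor that competes for the ends of the core, had 84 counts in liver (192 CPM) and 127 in muscle (289 CPM), with 63 in oWAT (159 CPM) and 36 in sWAT (93.8 CPM). Muscle was highest and sWAT lowest: muscle was 3.08-fold above sWAT (2.11 to 4.59) and 1.82-fold above oWAT (1.33 to 2.50), and liver was 2.05-fold above sWAT (1.37 to 3.11). Of the proteasome counts PSMF1 took 10.6% in liver (8.54 to 12.9), 7.20% in muscle (6.04 to 8.51), 5.72% in oWAT (4.42 to 7.26) and 4.13% in sWAT (2.91 to 5.67), so that its share was highest in liver.

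Members of the activator group differed in their order of tissues. PSME3, which forms a nuclear activator ring, had 33 counts in liver (75.4 CPM), 55 in muscle (125 CPM), 71 in the oWAT library (179 CPM) and 43 in sWAT (112 CPM). On the CPM scale it was highest in oWAT, 2.37-fold above liver (1.55 to 3.70) and 1.60-fold above sWAT (1.08 to 2.39), whereas with TMM scaling oWAT was 1.18-fold above liver (0.772 to 1.84) and stood level with muscle (0.968, 0.671 to 1.40). PSME4, a large single-chain activator, had 23 counts in liver (52.6 CPM) and 36 in muscle (81.8 CPM), with 15 in oWAT (37.8 CPM) and 15 in sWAT (39.1 CPM). It was highest in muscle, 2.16-fold above oWAT (1.16 to 4.26) and 2.09-fold above sWAT (1.12 to 4.12).

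PSME2, a subunit of the activator that interferon induces, had 2 counts in liver, 1 in muscle, 10 in the oWAT library (25.2 CPM) and 1 in sWAT. The oWAT library stood alone, with a ratio of 5.51 to liver (1.18 to 51.8), of 11.1 to muscle (1.58 to 481) and of 9.67 to sWAT (1.38 to 420). With TMM scaling the ratio to liver was 2.75 (0.585 to 25.8), and those to muscle and sWAT still excluded 1. Its partner PSME1 did not share this, at 2 counts in liver and 4 in muscle, with 3 in oWAT and 2 in sWAT. In the RefSeq annotation of assembly T2T-MFA8v1.1 the PSME1 and PSME2 genes are close neighbours, with EMC9 between them. All 4 PSME genes summed to 137 CPM in liver, 218 in muscle, 249 in the oWAT library and 159 in sWAT.

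The immunoproteasome genes were barely sampled. PSMB8, which replaces PSMB5, had 0 counts in liver and muscle, 5 in oWAT (12.6 CPM) and 3 in sWAT (7.81 CPM). PSMB5, its standard counterpart with the chymotrypsin-like site, had 6 in liver and 10 in muscle, with 5 in oWAT and 7 in sWAT. PSMB8 counts thus lay in the WAT libraries alone, and the floor for the 0 counts is 6.86 CPM in liver and 6.82 CPM in muscle. No pair reached the minimum of 10 counts. The exact intervals of oWAT over liver and over muscle began at 1.01 and 1.02 with library totals and at 0.503 and 0.687 with TMM scaling, and those of sWAT included 1.

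PSMB9, which replaces PSMB6, had 0 counts in liver, 2 in muscle, 2 in the oWAT library and 0 in sWAT, and PSMB6, with the caspase-like site, had 2, 3, 2 and 2. PSMB10, which replaces PSMB7, had 2 counts in liver and 2 in muscle, with 0 in oWAT and 3 in sWAT. The 3 genes did not share one order of tissues. Over the 3 catalytic pairs, immunoproteasome genes took 2 of 16 counts in liver (12.5%, exact 95% interval 1.55 to 38.3), 4 of 30 in muscle (13.3%, 3.76 to 30.7), 7 of 31 in oWAT (22.6%, 9.59 to 41.1) and 6 of 30 in sWAT (20%, 7.71 to 38.6). The 4 intervals overlapped widely, so neither a difference between tissues nor its absence could be read from these counts.

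Genes that work with the immunoproteasome were better sampled. The list of 13 antigen presentation and interferon response genes summed to 1079 CPM in liver, 1269 in muscle, 3717 in the oWAT library and 3285 in sWAT. By the calling rule 5 of 12 tested genes were higher in oWAT than in liver and 5 of 12 higher than in muscle (20.5% and 8.99% of all genes), and 4 and 2 of 12 were higher in sWAT (18.1% and 8.28%). With TMM scaling or DESeq2's factors these 5, 5, 4 and 2 calls became 1 (CD74), 2 (B2M and GBP1), 2 (B2M and CD74) and 1 (B2M). The shares of all genes called with those factors are not given here. B2M, the light chain of MHC class I, had 125 counts in liver and 90 in muscle, with 425 in oWAT and 493 in sWAT, and sWAT was 6.28-fold above muscle (5.00 to 7.95). CD74, the invariant chain of MHC class II, was 7.25-fold higher in oWAT than in liver (5.50 to 9.71), and GBP1, an interferon-induced GTPase, was 5.63-fold higher in oWAT than in muscle (3.08 to 11.1). TAPBP, which holds MHC class I at the peptide transporter, was 3.92-fold higher in oWAT than in liver (2.57 to 6.14), and 1.95-fold with TMM scaling (1.28 to 3.06). With TMM scaling the list sum was 1.72-fold above liver in oWAT (1.55 to 1.91) and 1.68-fold in sWAT (1.51 to 1.87), where it had been 3.45-fold (3.10 to 3.83) and 3.05-fold (2.74 to 3.39). Much of these sums came from B2M and CD74, with 493 and 312 of the 1261 counts in sWAT. They had 425 and 388 of 1475 in oWAT, and 125 and 59 of 472 in liver. The sum without them was not computed, so these ratios do not describe the list gene by gene.

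TAP1, the peptide transporter whose gene lies between PSMB8 and PSMB9 in the same annotation, had 16 counts in liver, 36 in muscle, 48 in the oWAT library and 31 in sWAT, and was called in no pair. The sums of leukocyte markers also differed between the libraries: 8 macrophage and myeloid markers summed to 628 CPM in liver and 461 in muscle, with 2014 in oWAT and 1508 in sWAT, with AIF1 at 0 in liver and oWAT. Single markers went another way, as CD14 was highest in liver (158 CPM, against 136 in oWAT and 75.5 in sWAT) and PTPRC was at 34.3 CPM in liver and 28.7 in sWAT. The 6 T and NK cell markers had 2, 0, 11 and 6 counts in liver, muscle, oWAT and sWAT, with all 6 at 0 in muscle. The 4 B and plasma cell markers listed had 7, 3, 57 and 7 counts, of which JCHAIN gave 52 in oWAT. The oWAT library also held 3690 CPM of 5 mesothelial markers, all of them at 0 in muscle and sWAT. The part of these cells in PSMB8, in PSME2 and in the antigen presentation genes was not tested.

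**Figure D5:**
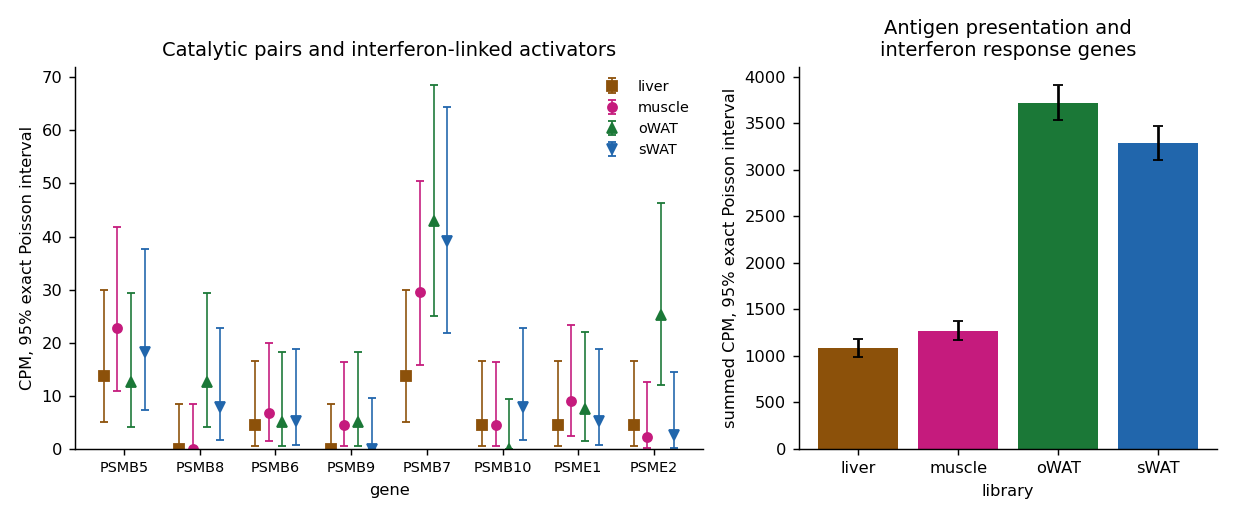
Left, CPM of the standard and immunoproteasome peptidases and of PSME1 and PSME2 in each library; right, summed CPM of 13 antigen presentation and interferon response genes; bars and points are single libraries with exact 95% Poisson intervals for counting error. Intervals on the left overlap for nearly all genes (PSMB8 is at 0 in liver and muscle and at 12.6 CPM in oWAT), whereas on the right oWAT (3717 CPM) and sWAT (3285 CPM) lie above liver (1079) and muscle (1269).

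Other genes of the pathway showed muscle as the highest library in several cases. Of 4 genes that control proteasome gene expression, NFE2L1, the transcription factor that raises proteasome genes when the proteasome is blocked, had 152 counts in liver, 488 in muscle, 287 in the oWAT library and 230 in sWAT, and muscle was 3.19-fold above liver (2.66 to 3.86). NGLY1, which strips sugars from NFE2L1, had 16, 46, 22 and 9 counts in the same order and was 4.46-fold higher in muscle than in sWAT (2.16 to 10.4). NFE2L2, a related factor of the oxidative stress response, was 3.54-fold higher in oWAT than in liver (2.30 to 5.63). The protease DDI2 was called in no pair. With TMM scaling the ratios of NFE2L1 (2.35, 1.96 to 2.84) and NFE2L2 (1.77, 1.14 to 2.80) no longer passed the rule, while NFE2L1 was then also called in muscle over sWAT. In muscle over liver, 1 of the 4 was called with library totals, where 16.8% of all genes were.

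Among 7 listed proteasome-associated factors, ZFAND5, known to stimulate the proteasome in wasting muscle, had 56 counts in liver (128 CPM) and 338 in muscle (768 CPM), with 91 in oWAT (229 CPM) and 76 in sWAT (198 CPM). It was the one of the 7 called in any pair, 6.0-fold above liver (4.51 to 8.12), 3.35-fold above oWAT (2.65 to 4.27) and 3.88-fold above sWAT (3.02 to 5.05). Of 5 shuttle and unfoldase genes, VCP, the ATPase that pulls ubiquitinated proteins out of complexes, was called, 2.55-fold higher in muscle than in liver (2.23 to 2.92), and 1.88-fold with TMM scaling (1.64 to 2.15), where that call was lost and VCP was called in muscle over both WAT libraries instead. In muscle over liver 1 of the 7 associated and 1 of the 5 shuttle genes were called, beside 16.8% of all genes. Both muscle ubiquitin ligases were called in muscle over each other library, beside 16.8% of all genes over liver, 5.77% over oWAT and 6.63% over sWAT. They were listed as ligases of muscle, so these calls describe them and do not bear on the other genes. TRIM63 reached the minimum count through muscle alone. FBXO32 had 1 count in liver, 267 in muscle, 21 in the oWAT library and 16 in sWAT, and muscle was 11.5-fold above oWAT (7.35 to 18.8). TRIM63 had 48 counts in muscle, 1 in oWAT and 0 in liver and sWAT, at least 15.9-fold above liver and 14-fold above sWAT against a floor of 3 counts, with exact intervals that begin at 12.5 and 10.9. The 2 assembly factors POMP and PAAF1 were called in no pair.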

How the data were processed

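The authors deposited 1 table per tissue with whole-number counts per gene, not normalized. Per the labels' protocols, RNA of 5 monkeys was pooled for each library and sequenced full length on the PacBio Sequel II platform; minimap2 2.24 is named in the submitters' processing notes. Not given in the sources used here are read filtering, gene assignment, strand use, genome build and annotation. Counts that name no gene (14.3% to 19.5% of a file) were left out. Tissues were taken from the labels, which differ from 2 file names.

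Folds are ratios of counts scaled to the library total, with exact 95% Clopper-Pearson intervals; shares have the same kind of interval, and odds ratios are conditional with exact intervals. They cover counting error only, since each tissue has 1 library. The reads carry no molecular identifiers here, so each read was taken as its own molecule. Median log2 ratios use 0.5 added counts and the genes with at least 10 counts over the pair. Against 0 counts a fold uses a floor of 3 counts in that library.

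Genes given in full were the catalytic pairs, the PSME genes, every called member and the most and least counted member of each group; PSMA4, PSMA7, PSMB4, PSMD4, PSMD7, PSMG3, TAP1, DDI2 and the ribosomal protein, COP9 signalosome and eIF3 lists were picked after their values were seen. From the pathway lists, up to 4 called genes were named. The list of ubiquitin genes is not reported here. The members and lists were chosen with earlier results of these data known. All 45 members and their symbols matched the RefSeq table; no coordinates are given. The calling rule was tested on simulated Poisson counts. Alternatives were scaling by edgeR 4.0.16 TMM and DESeq2 1.42.0 size factors (R 4.3.3; used for factors alone), totals that leave out 29 genes (the 10 most abundant per library, joined), a 99% interval, other minimum counts, a bound of 1 and other pseudocounts. Python 3.11.15, NumPy 2.4.6, pandas 2.3.3, SciPy 1.17.1 and matplotlib 3.10.9 were used.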

Additional observations from a re-analysis of the deposited data

How the results depend on the processing

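No paired analysis was possible because each tissue has 1 library and the labels give no replicate numbers. Depth limits the single genes: most core genes had under 20 counts in each library, so that many of their folds could not be separated from 1. Muscle over liver, oWAT and sWAT for the summed members kept its direction and excluded 1 under all alternatives run. Liver over oWAT for that sum became 1.31 with TMM and 1.30 with DESeq2's factors, liver over sWAT 1.44 and 1.39, and oWAT over sWAT 1.07 with DESeq2's factors. The shift of all genes in these scalings is itself of that size, by construction.

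Called members for liver and muscle, 4 with library totals, became 1 (PSMD2) with TMM or DESeq2's factors and 14 with a bound of 1. For liver and oWAT, 1 became 0 without the most abundant genes and 12 with a bound of 1; with TMM or DESeq2's factors the 1 called gene was PSMD3, higher in liver, in place of PSMD2. For liver and sWAT, 1 (PSMD9) became 2 with TMM or DESeq2's factors, PSMD3 and PSMF1, both higher in liver, and 7 with a bound of 1. For muscle and oWAT, 0 became 5 with either factor (PSMA4, PSMD1, PSMD7, PSMD8 and PSMD12, higher in muscle) and 14 with a bound of 1. For muscle and sWAT, 2 became 4 with either factor (PSMD12 and PSMD13 added), 1 with a 99% interval (PSMF1 lost) and 13 with a bound of 1. For oWAT and sWAT, 0 became 6 with a bound of 1. Shares of all genes are given above for library totals with bounds of 2 and 1, and not for the other alternatives.

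Group sums that changed direction, or whose interval came to include or to exclude 1, are given with TMM and then DESeq2's factors. The list mixes these cases, and the intervals are not given. Liver over muscle was 0.782 and 0.781 for PSMA, 1.21 and 1.21 for standard PSMB, 0.827 and 0.826 for PSMC, 1.26 and 1.26 for base chaperones, 0.854 and 0.852 for PSME, 1.19 and 1.19 for PSMG, and 0.903 and 0.902 for PSMF1. Liver over oWAT was 1.30 and 1.29 for PSMA, 1.45 and 1.43 for standard PSMB, 1.44 and 1.43 for PSMC, 1.62 and 1.60 for the lid, 0.891 and 0.881 for the base, 1.47 and 1.45 for base chaperones, 1.1 and 1.09 for PSME, and 2.43 and 2.40 for PSMF1. Liver over sWAT was 1.09 and 1.05 for PSMA, 1.2 and 1.16 for standard PSMB, 1.68 and 1.62 for PSMC, 1.63 and 1.57 for the lid, 1.11 and 1.07 for the base, 0.923 and 0.891 for base chaperones, 1.56 and 1.51 for PSME, and 1.39 and 1.34 for PSMG. Muscle over oWAT was 1.66 and 1.65 for PSMA, 1.2 and 1.18 for standard PSMB, 1.74 and 1.73 for PSMC, 1.16 and 1.15 for base chaperones, and 1.29 and 1.28 for PSME. Muscle over sWAT was 1.40 for PSMA (TMM alone), 0.730 and 0.705 for base chaperones, 1.83 and 1.77 for PSME, and 1.16 and 1.12 for PSMG. Between oWAT and sWAT, PSMC was 1.17 and 1.14 and PSMF1 1.53 and 1.49, and with DESeq2's factors alone the immunoproteasome genes were 0.993, the lid 0.982, base chaperones 0.614 and PSME 1.38.

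With totals without the most abundant genes, liver over oWAT was 0.785 for PSMA, 0.871 for PSMC, 0.976 for the lid and 1.47 for PSMF1, liver over sWAT 1.05 for PSMC and 1.01 for the lid, muscle over oWAT 1.36 for PSMC and 1.01 for PSME, muscle over sWAT 1.46 for PSME, and oWAT over sWAT 1.2 for PSMC. With the 99% interval, 1 was no longer excluded for liver over oWAT of PSMA (0.648) and the lid (0.805), muscle over sWAT of base chaperones (0.548), and oWAT over sWAT of PSMC (1.29) and PSMF1 (1.69).

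The median log2 ratio of oWAT over sWAT became 0.012 with no minimum count. The immunoproteasome share by single pairs rested on very few counts. For PSMB8 it was 0 of 6 in liver, 0 of 10 in muscle and 5 of 10 in oWAT (50%, 18.7 to 81.3). For PSMB9 it was 0 of 2 in liver (0 to 84.2), 2 of 5 in muscle (40%, 5.27 to 85.3), 2 of 4 in oWAT (50%, 6.76 to 93.2) and 0 of 2 in sWAT. For PSMB10 it was 0 of 17 in oWAT (0 to 19.5). The odds of core counts in muscle over liver, 0.664, became 0.777 without PSMD2 and 0.833 without PSMD1 and PSMD2, and those of sWAT over oWAT, 1.36, became 1.23 and 1.28, and all 4 intervals then included 1; these 2 alternatives were chosen after seeing the data. Scaling of the called pathway genes, the core sum and the antigen presentation sum was also added after seeing the data.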

Other observations

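The lid shares its architecture with the COP9 signalosome, which removes the ubiquitin-like protein NEDD8 from ubiquitin ligases, and with the translation initiation factor eIF3. Both were looked up after the proteasome values were seen. The 8 COP9 signalosome genes listed summed to 265 CPM in liver and 652 in muscle, with 481 in oWAT and 401 in sWAT. Muscle was 2.46-fold above liver (exact 95% interval 1.98 to 3.08), 1.36-fold above oWAT (1.12 to 1.64) and 1.63-fold above sWAT (1.33 to 1.99). The 13 eIF3 genes summed to 649 CPM in liver, 1014 in muscle, 1167 in the oWAT library and 808 in sWAT. On the CPM scale oWAT was thus highest, and muscle over oWAT was 0.869 (0.761 to 0.992). TMM scaling moves every gene of that pair by 0.56 on the log2 scale toward muscle, which turns this ratio above 1. The same shift applies to all 3 complexes. With library totals the lid genes stood at 1.82-fold for muscle over oWAT (1.56 to 2.14), and the difference between the 3 complexes was not tested.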
